A study of Homo sapiens with 6 samples.

Results

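The HOX-cluster miRNAs miR-10a, miR-10b, miR-196a, miR-196b and miR-615 were described in A549 cells with and without added SMARCA4. Every row of the deposited table that names one of these miRNAs, on either arm of its hairpin, was taken, which gave 9 of the 787 mature miRNAs listed. A549 is an established human cell line derived from a lung adenocarcinoma, with epithelial character. The controls were 3 libraries of A549 cells transfected with the empty plasmid pcDNA4, and the other 3 were from A549 cells transfected with pcDNA4-SMARCA4, all taken 48 h after transfection. SMARCA4, also called BRG1, is an ATPase of SWI/SNF, a complex that remodels chromatin, and its delivery is called a restoration in the labels. Both groups received plasmid and lipid reagent, both come from 1 cell line, and the level of SMARCA4 itself was not analysed here.

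HOX genes lie in clusters and set the identity of body segments, and several miRNA hairpins lie among them. SWI/SNF subunits were first linked to HOX genes in the fly, where the counterpart of SMARCA4 helps to keep homeotic genes active. A miRNA guides a silencing complex to mRNAs mainly through its seed, the bases 2 to 8 from the 5′ end. miR-196 directs cleavage of HOXB8 mRNA, miR-10b is known to repress HOXD10, and miR-10 family members have been widely studied in invasion and metastasis.

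The more abundant arm of each hairpin is shown here, because its seed defines the family and its reads carry the comparison. Sequences are from RefSeq (GRCh38.p14), written 5′ to 3′ with the seed in capitals, and 8 of the 9 rows matched an entry; miR-10b-5p is named only. The miR-99/100 arms are set beside miR-10a-5p because they are close relatives in sequence that lie outside the HOX clusters.
hsa-miR-10a-5p: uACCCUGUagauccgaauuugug
miR-100-5p: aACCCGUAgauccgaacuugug
miR-99a-5p: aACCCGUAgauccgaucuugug
miR-99b-5p: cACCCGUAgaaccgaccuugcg
hsa-miR-196a-5p: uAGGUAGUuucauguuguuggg
hsa-miR-196b-5p: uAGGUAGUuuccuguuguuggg
miR-615-3p: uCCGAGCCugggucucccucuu

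miR-196a-5p and miR-196b-5p share their seed and differ by A12C, where positions count from 1 at the 5′ end and the base of miR-196a-5p comes first. No other row of the table with a RefSeq sequence has the seed of miR-196 or that of miR-10a-5p. miR-10b-5p had no such sequence, so its seed was not compared, and the miR-10a-5p seed cannot be called unique in the table. miR-10a-5p is 3 edits from miR-100-5p, 4 from miR-99a-5p and 6 from miR-99b-5p when gaps are allowed, but its seed is not theirs. Reads of near-identical miRNAs such as miR-196a and miR-196b, or miR-10a and miR-10b, can be divided in different ways by a counting program, and the authors' way of doing so was not stated in the labels or in the table.

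In GRCh38, the miR-10a-5p sequence lies on the minus strand at chr17:48579904-48579926. Its hairpin gene MIR10A (chromosome 17, 48579838 to 48579947, GENCODE 29) is in an intron of HOXB3 and overlaps an exon annotated as a UTR of HOXB4, on the same strand. MIR10B (chromosome 2, 176150303 to 176150412, plus strand) is in an intron of HOXD3. Mature miR-196a-5p is encoded at 2 loci, chr12:53991762-53991783 on the plus strand and chr17:48632532-48632553 on the minus strand. MIR196A2 lies between HOXC10, which ends 1458 bases away, and HOXC9, which starts 3047 bases away, within an intron of a long HOXC6 transcript. MIR196A1 lies between HOXB9, 6133 bases away, and PRAC1, 89159 bases away, within an annotated intron of HOXB7. A read of miR-196a-5p therefore cannot be assigned to the HOXC or the HOXB cluster. miR-196b-5p lies at chr7:27169528-27169549 on the minus strand, where MIR196B overlaps an exon of HOXA9, 1027 bases from HOXA10. miR-615-3p lies at chr12:54034010-54034031 on the plus strand, and MIR615 is in an intron of HOXC5.

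Reads assigned to listed miRNAs totalled 701885 to 1079944 in 5 libraries and 7274329 in SMARCA4 replicate 2, which is 8.33 times the mean of the others. Values are normalized read counts, given for each group in the order of replicates 1, 2 and 3, in which 3 reads, the limit that a count of 0 allows, correspond to 1.27 in SMARCA4 replicate 2 and to 4.91 to 7.84 elsewhere. Of 6 epithelial marker miRNAs, 5 were above 0 in all 6 libraries, with summed values of 350 to 672 in empty vector and 385 to 581 in SMARCA4 libraries, and miR-205-5p was not listed or at 0. Those sums hold members with opposite signs: miR-141-3p rose (log2 fold change 2.55, limma adjusted p = 0.0124), while miR-200a-3p was at 1.27 and miR-200b-3p at −1.14 (limma adjusted p = 0.178 and 0.109). Among blood markers, 2 of 6 were listed, with summed values of 5.71 to 47.1 against 31.7 to 88.9, and miR-451a and miR-223-3p were not listed or at 0. Both endothelial markers (arms of miR-126) were present at 746 to 1490 against 1200 to 1401. Liver and muscle markers were not listed or at 0, and of 2 neuronal markers only miR-9-5p was present, at 140 to 146 against 146 to 427. The part of these markers in the results on HOX-cluster miRNAs was not tested.

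Across the 637 miRNAs with a mean of at least 1, limma called 9 at an adjusted p under 0.05, or 1.41%. Of the 9 HOX-cluster rows, 8 were tested and 0 passed. Unadjusted p-values were under 0.05 for 3 of the 8, against 22.6% of all tested miRNAs (11.3% with a higher level in SMARCA4 cells, as in these 3), and the groups did not overlap for 4 of the 8, against 31.1%. Those 4 rows were the 5p arms of miR-10a, miR-10b, miR-196a and miR-196b, each higher with SMARCA4, a pattern seen in 15.9% of all tested miRNAs. The other 4 tested rows, which are the 3p arms of miR-10a, miR-10b, miR-196a and miR-615, had negative log2 fold changes and overlapping groups. Over the 8 rows the median log2 fold change was 0.44, against −0.05 over all tested miRNAs. No row lay near that median, since 4 rows were at −1.11 to −0.04 and 4 at 0.92 to 1.45. It therefore does not describe a shift of the rows as a set. Libraries are of bulk RNA, so more RNA per cell and more cells with the RNA cannot be told apart. edgeR on the recovered reads called 0 of the 8 (1.26% of all tested), and DESeq2 called 3 of the 6 for which it gave an adjusted p, all higher with SMARCA4: miR-10b-5p, miR-196a-5p and miR-196b-5p. DESeq2 gave an adjusted p for 425 of the 637 miRNAs and called 10.4% of them, 5.41% as higher, and left it undefined for miR-10b-3p and miR-196a-3p.

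**Figure D1:**
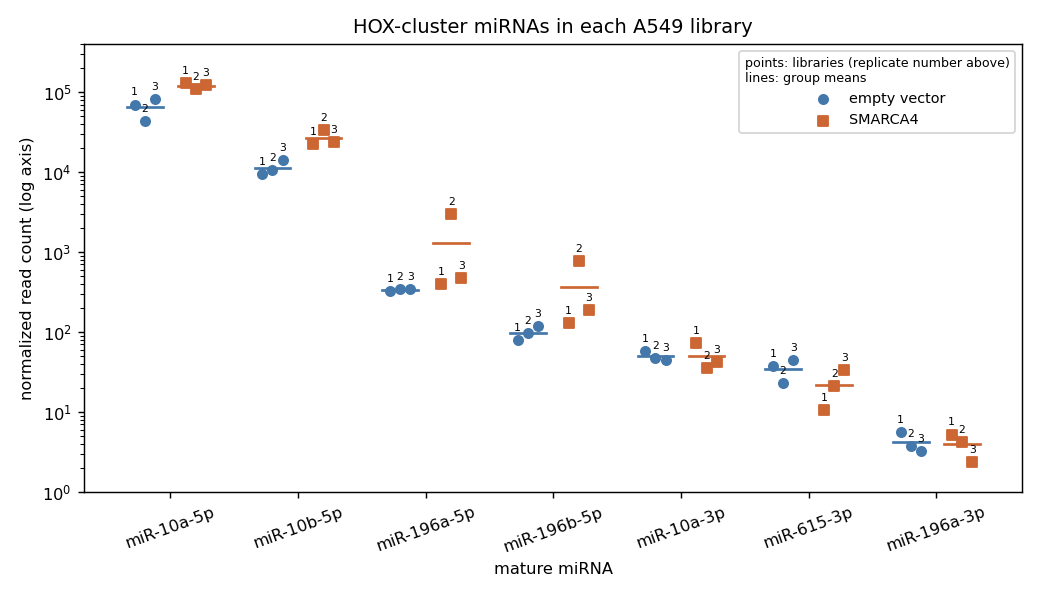
Normalized read count (log axis) of 7 HOX-cluster miRNA rows in each library; points are libraries with their replicate number, lines are group means. The SMARCA4 points of the 4 leading 5p arms all sit above the empty vector points, and SMARCA4 replicate 2 stands far above the other libraries for miR-196a-5p and miR-196b-5p, at 2982 and 763.

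**Figure D2:**
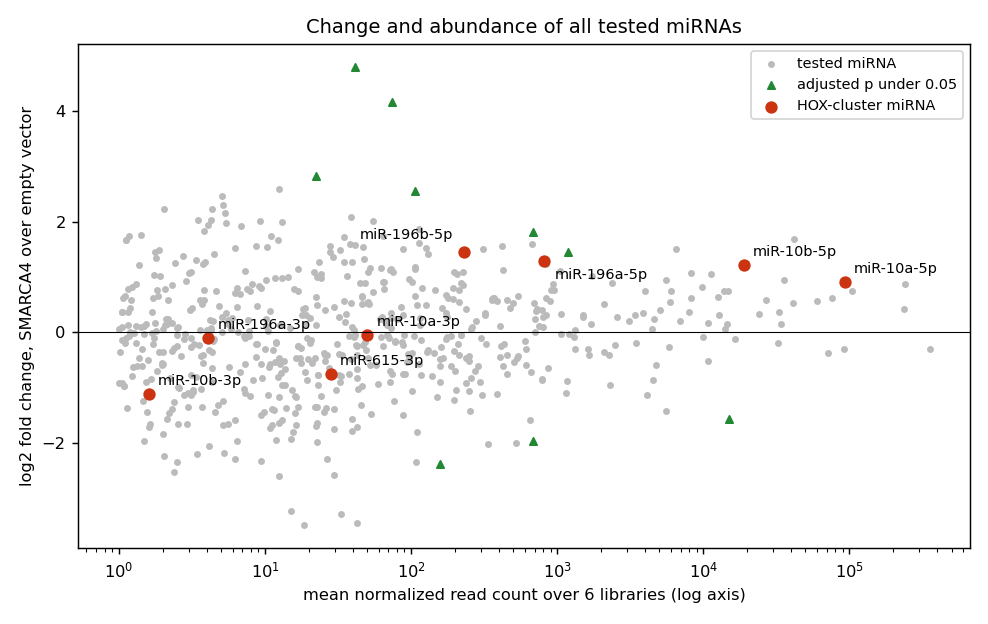
Log2 fold change against the mean normalized read count (log axis) for the 637 tested miRNAs, with the 9 called miRNAs as triangles and the HOX-cluster rows as large circles. The 4 leading 5p arms lie between 0.92 and 1.45, and no HOX-cluster row is among the called miRNAs.

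hsa-miR-10a-5p was the most abundant row and one of the leading miRNAs of these cells, ranking between 4 and 10 in every library. It measured 69982, 44118 and 83074 normalized counts with empty vector and 128351, 110294 and 121822 with SMARCA4. Every SMARCA4 library was above every empty vector library, and the spread was wider among the controls. The means were 65725 ± 19824 and 120156 ± 9143 (SD, n = 3 each), a log2 fold change of 0.92 (SE 0.31, 95% interval 0.22 to 1.62, limma adjusted p = 0.124).

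The separation of the groups for miR-10a-5p held in the deposited scaling and not in shares of the library total. It made up 4.21%, 2.48% and 4.70% of the empty vector totals, against 6.99%, 3.59% and 6.72% of the SMARCA4 totals. SMARCA4 replicate 2 fell inside the range of the controls on this scale (exact two-sided permutation p = 0.3, where 3 against 3 cannot go under 0.1). The deposited total of that library was 3073322, against 1661870 to 1835229 in the others. A share also depends on the other miRNAs in a library. In SMARCA4 replicate 2 let-7a-5p measured 318431, against 58274 and 60498 in SMARCA4 replicates 1 and 3. The part of such rows in the lower share of miR-10a-5p was not tested. Rescaling all libraries to the same total shifted the median over all tested miRNAs by −0.30 (log2), to −0.35, and gave miR-10a-5p a value of 0.59 (adjusted p = 0.315). Calls over all miRNAs were then 4 higher and 5 lower, where the deposited scaling gave 6 higher and 3 lower.

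hsa-miR-10b-5p was less abundant than miR-10a-5p in every library, ranking between 15 and 28. Its values were 9377, 10500 and 14163 with empty vector and 22173, 33942 and 23575 with SMARCA4. The lowest SMARCA4 library lay well above the highest control. With means of 11347 ± 2503 and 26564 ± 6429 (SD, n = 3 each), the level was 2.34-fold higher with SMARCA4 and had the lowest p of the 8 rows (log2 fold change 1.22, SE 0.29, 95% interval 0.57 to 1.88, limma adjusted p = 0.0656).

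Unlike miR-10a-5p, miR-10b-5p also kept its groups apart in shares of the library total. The shares were 0.564%, 0.591% and 0.802% with empty vector and 1.21%, 1.10% and 1.30% with SMARCA4 (exact two-sided permutation p = 0.1, the smallest possible). At equal totals its log2 fold change was 0.90 (adjusted p = 0.0767). DESeq2 gave an adjusted p of 0.0100 and edgeR one of 0.0711. Without SMARCA4 replicate 2 the log2 fold change was 1.03 and passed (limma adjusted p = 0.0366), where 6.44% of all tested miRNAs passed and 2.67% passed as higher; none of the other 7 rows did.

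The ratio of miR-10b-5p to miR-10a-5p within a library does not depend on how libraries are scaled. It was 0.134, 0.238 and 0.170 with empty vector and 0.173, 0.308 and 0.194 with SMARCA4. The groups overlapped, and a difference between the changes of the 2 miRNAs was not detected (0.31 on the log2 scale, exact two-sided permutation p = 0.4, adjusted p = 0.6 over 3 ratios).

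**Figure D3:**
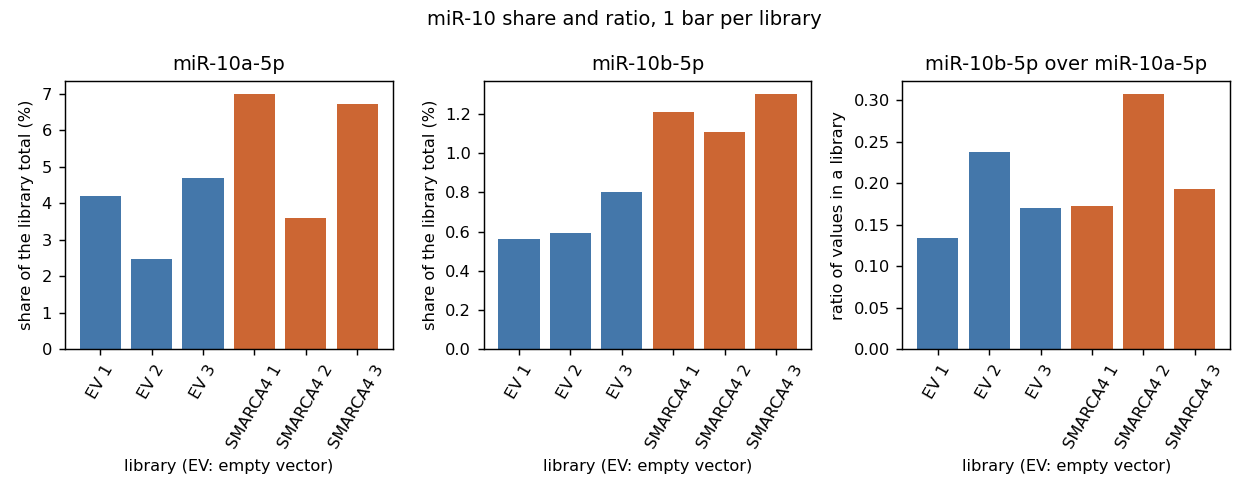
Share of the library total (%) of miR-10a-5p and miR-10b-5p, and the ratio of their values, with 1 bar per library. The miR-10b-5p bars of the SMARCA4 libraries (1.10% to 1.30%) are all above those of the controls, while for miR-10a-5p SMARCA4 replicate 2 (3.59%) is below 2 of the 3 controls.

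On the opposite arm of the miR-10a hairpin no difference was detected. miR-10a-3p, the minor strand, measured 58.5, 47.5 and 44.1 with empty vector and 73.2, 35.9 and 42.5 with SMARCA4, from 18 to 85 reads a library. These values overlapped, with means of 50.05 ± 7.47 and 50.54 ± 19.9 (SD, n = 3 each; log2 fold change −0.04, 95% interval −0.95 to 0.87, limma adjusted p = 0.965). The 5p to 3p ratio was 1197, 928 and 1882 with empty vector and 1753, 3071 and 2866 with SMARCA4. Those ratios overlapped in 1 library of each group, and the difference of 0.96 on the log2 scale did not pass (exact two-sided permutation p = 0.2, adjusted p = 0.6 over 3 ratios). miR-10b-3p had 1, 1 and 2 reads in empty vector libraries and 0, 6 and 0 in SMARCA4 libraries, so its log2 fold change of −1.11 rests on few reads (limma adjusted p = 0.394).

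hsa-miR-196a-5p was far scarcer than miR-10, and its SMARCA4 values were dominated by 1 library. Its values were 322, 342 and 342 normalized counts with empty vector and 400, 2982 and 467 with SMARCA4. Controls agreed closely, SMARCA4 replicates 1 and 3 lay slightly above them, and SMARCA4 replicate 2 was 6.88 times the mean of those 2 libraries. From counting error alone, the 95% interval of SMARCA4 replicate 1 (0.0186% to 0.0255% of reads) held the control values of 0.0193% to 0.0194%. That of SMARCA4 replicate 3 (0.0224% to 0.0296%) lay above these values, although the interval of empty vector replicate 1 reached 0.0225%. The means of 335 ± 11.3 and 1283 ± 1472 (SD, n = 3 each) gave a log2 fold change of 1.29 (SE 0.66, 95% interval −0.20 to 2.79, limma adjusted p = 0.271). Without SMARCA4 replicate 2 it was 0.37 (limma adjusted p = 0.347), and DESeq2 on all 6 libraries gave 1.89 (adjusted p = 0.0318).

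hsa-miR-196b-5p followed the same pattern at a lower level. It measured 79.2, 97.0 and 118 with empty vector and 131, 763 and 189 with SMARCA4. Groups did not overlap, although the gap between the highest control and SMARCA4 replicate 1 was small, at 72 and 50 reads. As percentages of reads, the 95% intervals of these 2 libraries from counting error alone overlapped (0.00529 to 0.00840 and 0.00540 to 0.00939). A log2 fold change of 1.45 (SE 0.59, 95% interval 0.11 to 2.79, limma adjusted p = 0.188) became 0.69 without SMARCA4 replicate 2 (limma adjusted p = 0.210), and DESeq2 on all 6 libraries gave 1.85 (adjusted p = 0.0241).

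Within a library, the ratio of miR-196b-5p to miR-196a-5p was 0.246, 0.283 and 0.344 with empty vector and 0.327, 0.256 and 0.404 with SMARCA4. SMARCA4 replicate 2 lay inside the control range of this ratio and under the other SMARCA4 libraries, since miR-196b-5p stood there at 4.77 times the mean of SMARCA4 replicates 1 and 3. No difference between the groups was detected (0.16 on the log2 scale, exact two-sided permutation p = 0.6, adjusted p = 0.6 over 3 ratios). Together the pair made up 0.0242%, 0.0247% and 0.0260% of the empty vector totals, and 0.0289%, 0.122% and 0.0362% of the SMARCA4 totals. The groups did not overlap in these shares (exact two-sided permutation p = 0.1, the smallest possible), but the gap was narrow, from 0.0260% to 0.0289%. The difference in mean share was 0.0374 percentage points with all 6 libraries and 0.0076 without SMARCA4 replicate 2. For miR-10b-5p it was 0.55 and 0.60. miR-196a-3p, the minor arm, had 7 reads over the 3 empty vector libraries and 13 over the 3 SMARCA4 libraries (log2 fold change −0.11, limma adjusted p = 0.949).

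miR-615, whose hairpin lies within HOXC5, was scarce on its 3p arm and nearly undetected on its 5p arm. miR-615-3p measured 37.7, 22.8 and 44.1 with empty vector and 10.5, 21.1 and 33.1 with SMARCA4, from 4 to 50 reads a library. SMARCA4 replicate 3 lay above empty vector replicate 2, so the groups overlapped, and the log2 fold change of −0.76 had a 95% interval from −1.94 to 0.42 (limma adjusted p = 0.411). miR-615-5p had 1 read in SMARCA4 replicate 2, the deepest library, and 0 in the other 5, and it was not tested.

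The seed of miR-196, AGGUAGU, is also found 1 base further into most let-7 family members, and both groups of miRNAs stood high in SMARCA4 replicate 2. This was noticed after the values were seen and is given as a description with no test. The 7 bases were searched in the first 9 bases of the RefSeq mature sequences, which 689 of the 787 listed miRNAs have, on the mature strand only, and 10 rows held them. These were miR-196a-5p, miR-196b-5p, miR-98-5p and 7 let-7 members. Among 208 miRNAs with a mean of at least 100, ranked by the log2 ratio of SMARCA4 replicate 2 to the mean of SMARCA4 replicates 1 and 3 (1 added to both), 8 of the 10 were in the top 20. miR-196a-5p ranked 5 (log2 2.78) and miR-196b-5p ranked 12 (log2 2.25), beside let-7i-5p at rank 8 (2.56) and let-7a-5p at rank 11 (2.42). let-7b-5p was an exception, at rank 117 (0.06). The median was 2.21 for the 10 rows and 0.19 for the rest. miR-10b-5p ranked 74 (0.57) and miR-10a-5p ranked 135 (−0.18). Ranks 1, 2 and 3 were held by miR-1261, miR-320a and miR-3960, none of which is among the 10 rows. let-7e-5p, the let-7 member whose sequence does not hold the 7 bases in that window, ranked 6 (2.73), above every let-7 member that does, so a high rank was not limited to rows with the 7 bases. miR-196a-5p shares a run of 7 bases with let-7a-5p and is 9 edits from it over the full length.

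**Figure D4:**
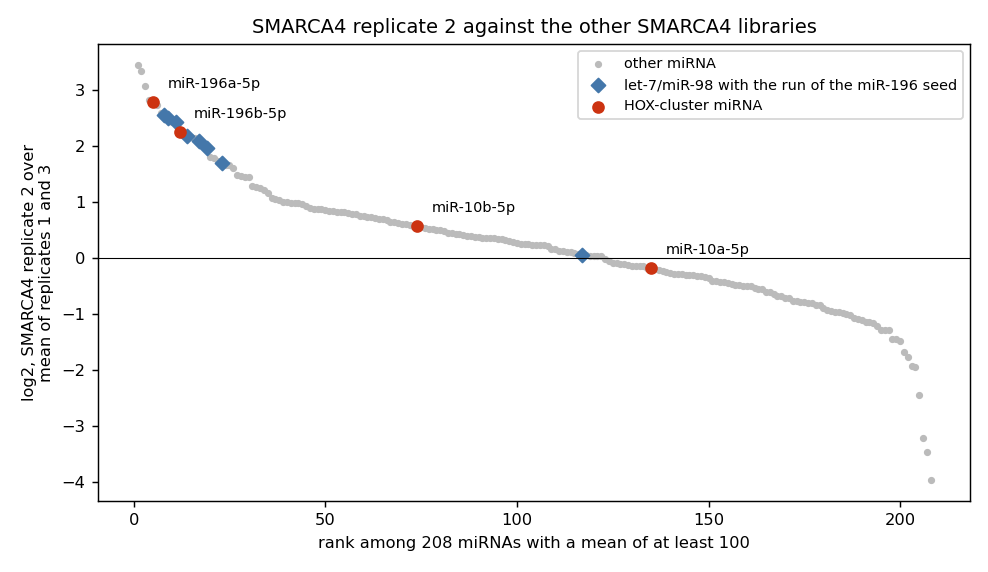
Log2 ratio of SMARCA4 replicate 2 to the mean of SMARCA4 replicates 1 and 3, by rank, for 208 miRNAs with a mean of at least 100. miR-196a-5p and miR-196b-5p sit among the let-7 members near the top, and miR-10a-5p and miR-10b-5p lie in the middle.

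**Figure D5:**
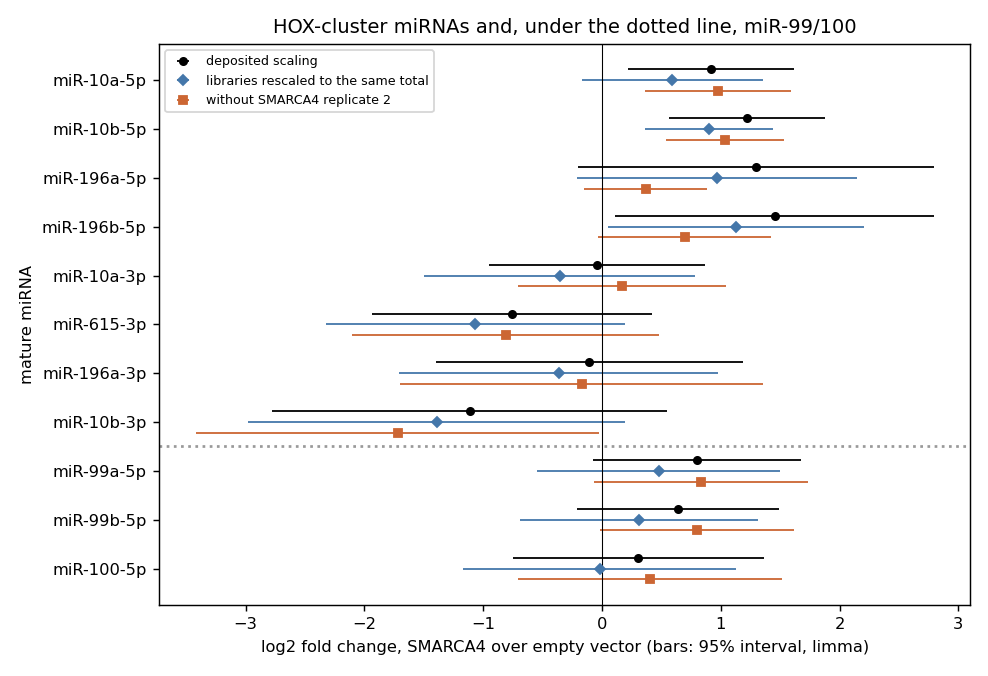
Log2 fold change with its 95% interval (limma) for the 8 tested HOX-cluster rows and, under the dotted line, 3 miR-99/100 arms, in the deposited scaling, at equal library totals and without SMARCA4 replicate 2. miR-10b-5p stays at 0.90 or above in all 3, while miR-196a-5p goes from 1.29 to 0.37 without SMARCA4 replicate 2.

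Of the 3 relatives of miR-10 outside the HOX clusters, 0 passed. Their log2 fold changes were 0.80 for miR-99a-5p, 0.64 for miR-99b-5p and 0.30 for miR-100-5p (limma adjusted p = 0.245, 0.338 and 0.723), and that of miR-100-5p was −0.02 at equal library totals. miR-99b-5p measured 11202, 5424 and 14203 with empty vector and 17113, 11801 and 16093 with SMARCA4. As with miR-10a-5p, empty vector replicate 2 was the lowest control and SMARCA4 replicate 2 the lowest SMARCA4 library. Groups overlapped for miR-99b-5p and miR-100-5p and not for miR-99a-5p.

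Among 207 other miRNAs with a mean of at least 100, those most like miR-10b-5p over the 6 libraries were miR-28-3p, miR-424-3p and miR-130b-3p, with Pearson r of 0.98, 0.98 and 0.97 of log2 values. For miR-10a-5p they were miR-374b-5p, miR-141-3p and miR-99a-5p, with r of 0.97, 0.96 and 0.95. Between miR-10a-5p and miR-10b-5p r was 0.82. These coefficients describe 6 libraries that share the group difference and the library scaling, and they carry no test.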

How the data were processed

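Small RNA was measured in 6 libraries, 3 per group, grouped and numbered by their titles, and the series' design text describes them as independent biological replicates. Per the labels' protocols, the TruSeq small RNA kit was used. The submitters' processing notes name bcl2fastq 2.18.0.12 and the build GRCh38; trimmer, aligner, counter and miRNA annotation: not given in the sources used here. The authors deposited a normalized signal per mature miRNA, which is a read count times 1 factor per library. Whole reads were recovered for 100% of values (tolerance 1e-06 reads). The limit that a count of 0 allows covers counting error only, and the 95% intervals of log2 fold changes are limma's, from the spread between libraries.

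limma 3.58.1 (R 4.3.3) was fitted to log2(value + 1) with a mean-variance trend over the 637 miRNAs with a mean of at least 1, with Benjamini-Hochberg adjustment and a threshold of 0.05; this understates changes of scarce miRNAs. The recovered reads of the same miRNAs were also tested with edgeR 4.0.16 (quasi-likelihood) and DESeq2 1.42.0. Scripts were tested on simulated data. Shares and ratios (both rows with a mean of at least 10) were compared by exact permutation. All member rows, the 3 miR-99/100 arms and, for members with a mean of at least 1000, the 3 miRNAs of highest correlation are named. The members and lists were chosen with earlier results of these data known. Alternatives were other pseudocounts, filters, scalings, tools, a replicate block and leaving out each library.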

Additional observations from a re-analysis of the deposited data

How the results depend on the processing

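The log2 fold changes of miR-10a-5p, miR-10b-5p, miR-196a-5p and miR-196b-5p were positive under every alternative run. With DESeq2, 44 of all tested miRNAs and 3 HOX-cluster rows passed, with log2 fold changes of 1.22 (miR-10b-5p), 1.89 (miR-196a-5p) and 1.85 (miR-196b-5p). With 1 library left out, the number of all tested miRNAs that passed ranged from 0 to 41 and that of HOX-cluster rows from 0 to 1; the log2 fold change ranged from 0.65 to 1.11 for miR-10a-5p, from 1.03 to 1.39 for miR-10b-5p, from 0.37 to 1.81 for miR-196a-5p and from 0.69 to 1.96 for miR-196b-5p. Signs reversed for miR-10a-3p (−0.34 to 0.16), for miR-196a-3p (−0.30 to 0.15) and for the log2 ratio of miR-196b-5p to miR-196a-5p (−0.0027 to 0.33), all close to 0. At equal library totals and without SMARCA4 replicate 2, an alternative chosen after seeing the data, 37 of all tested miRNAs and 1 HOX-cluster row passed, miR-10b-5p at 0.96 (adjusted p = 0.0397), and miR-10a-3p was at 0.0926. The cause of these differences was not tested. Same-numbered libraries had deviations correlated at 0.07, 0.09 and 0.01, and libraries with different numbers at −0.10 to 0.05. Whether replicate numbers pair the libraries was not tested. With the replicate block 13 of all tested miRNAs and 0 HOX-cluster rows passed, and miR-10b-5p had an adjusted p of 0.0561. Depth limits the 3p arms and miR-615, which rest on at most 85 reads a library.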
